A study of Homo sapiens with 30 samples.

Results

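The proteins of the mitochondrial ribosome were followed through their mRNAs in 2 irradiated human lymphoblastoid lines. A probe set belonged to the group when its single annotated gene symbol began with MRPL or MRPS and a number, or was DAP3. This gave 65 of 22283 probe sets, for 52 genes: 35 probe sets of 31 large subunit genes (MRPL) and 30 probe sets of 21 small subunit genes (MRPS and DAP3). GM15510 and GM15036 are human B cell lines of the lymphoblastoid type, which are made by transforming blood B cells with Epstein-Barr virus and grow in suspension. Each line was irradiated with a caesium source at 1, 2.5, 5, 7.5 or 10 cGy, and 3 arrays were made for each line and dose, 30 in all. The labels give the doses in cGy and the design text of the series in Gy, so the unit is uncertain, and the labels' unit is used here. No unirradiated sample was analysed here, and 1 cGy of a line served as the comparator for its higher doses. How long after irradiation the cells were harvested is not stated in these sources.

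Mitochondria translate the few proteins encoded by their own DNA, all of them subunits of the respiratory chain or of ATP synthase, on a ribosome of their own. Its RNAs come from mitochondrial DNA, but all of its proteins are encoded in the nucleus, made in the cytosol and imported. Some are homologues of bacterial ribosomal proteins and others occur only in mitochondria. The small subunit decodes the mRNA, and the large subunit holds the peptidyl transferase centre and the exit tunnel.

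Trimmed mean signals of the arrays lay between 14.1 and 111.6, a ratio of 7.91, and each array was scaled to the common mean of 50.9. All values below are log2(scaled signal + 4), and changes are differences on that scale, which understates the change of dim probe sets. Arrays of a group correlated at 0.901 to 0.972 and arrays of different lines at 0.857 to 0.945. Both were taken over the 13331 probe sets that passed a filter on low values. The 3 arrays of GM15036 at 10 cGy were dim, at 18.4, 14.1 and 33.8, against 57.9, 75.0 and 76.0 at 1 cGy. Those of GM15510 at 2.5 cGy were dim too, at 23.7, 17.3 and 15.04, against 74.2, 57.3 and 76.7 at 1 cGy. Arrays of GM15036 at 7.5 cGy stood at 37.8, 29.1 and 30.2, and those of GM15510 at 5 cGy at 19.6, 28.1 and 69.4. The log2 ratio of the 3-prime to the 5-prime probe set of ACTB, a sign of RNA integrity and of labelling, averaged 5.16 ± 0.10 in GM15510 at 10 cGy and 3.75 ± 0.49 at 1 cGy, and 5.20 ± 0.15 in GM15036 at 10 cGy and 4.48 ± 0.20 at 1 cGy (SD, n = 3 each). At 2.5, 5 and 7.5 cGy it averaged 4.29, 4.81 and 3.78 in GM15510 and 5.51, 5.03 and 5.40 in GM15036. B cell markers were present in both lines: 13 of their 15 probe sets passed the filter on low values, and their summed scaled signal lay between 2814 and 3279 in GM15510 and between 2695 and 3475 in GM15036. Of the other markers, 1 of 14 T and NK cell, 0 of 10 monocyte, 1 of 6 erythroid and 6 of 26 fibroblast probe sets passed it. Their summed scaled signals were 39.1 to 130 in GM15510 and 46.4 to 159 in GM15036 for T and NK cells, 16.9 to 75.6 and 21.8 to 63.7 for monocytes, 25.9 to 57.4 and 14.9 to 67.6 for erythroid cells, and 134 to 257 and 145 to 283 for fibroblasts, in the same order of lines. Whether a group's 3 arrays stand for 3 cultures is not stated, so p-values reflect only array-to-array spread, which may be technical.

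Of the 65 probe sets, 59 passed the filter on low values and were tested, for 49 genes (32 large and 27 small subunit probe sets). The 6 others were MRPL4, MRPL41, MRPS18C, 1 of 2 probe sets of MRPL20 and 2 of 4 probe sets of MRPS12. MRPL41, a protein of the large subunit, had lowest, median and highest values of 2.42, 3.05 and 4.37 in GM15510 and 2.34, 3.04 and 4.85 in GM15036, near the floor that the added 4 sets. The residual SD between arrays of a group had a median of 0.23 over the tested members and 0.30 over all 13331 tested probe sets. The range of the 5 dose means of a probe set had a median of 0.48 in GM15510 and 0.47 in GM15036, against 0.57 and 0.54 over all tested probe sets in the same lines.

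The 2 lines differed in the level of many of these mRNAs, in both directions. Averaged over the 5 doses, 20 probe sets were higher and 15 lower in GM15510 than in GM15036, 35 of 59, by limma with Benjamini-Hochberg adjustment over all tested probe sets at 0.05. Over all tested probe sets the share called was 47.2%, with 20.5% higher and 26.7% lower. The median difference was 0.06 for the mitoribosomal probe sets and -0.07 for all. No mitoribosomal probe set separated the 15 arrays of GM15510 from the 15 of GM15036 without overlap, while 3.48% of all tested probe sets did. Of the called members, 12 of the 20 higher and 8 of the 15 lower ones kept their sign at all 5 doses. Over all called probe sets, 1729 of 2732 higher and 2264 of 3559 lower ones did. In bulk RNA, fewer cells of a type and less RNA per cell cannot be told apart. Line and any difference in handling between the lines cannot be told apart either. The split moved with the centring of the arrays: centred on their medians, 23 were higher and 7 lower in GM15510, and centred after scaling, 22 and 7. With the GAPDH 3-prime to 5-prime ratio as a covariate 21 were called, 13 higher and 8 lower.

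**Figure D1:**
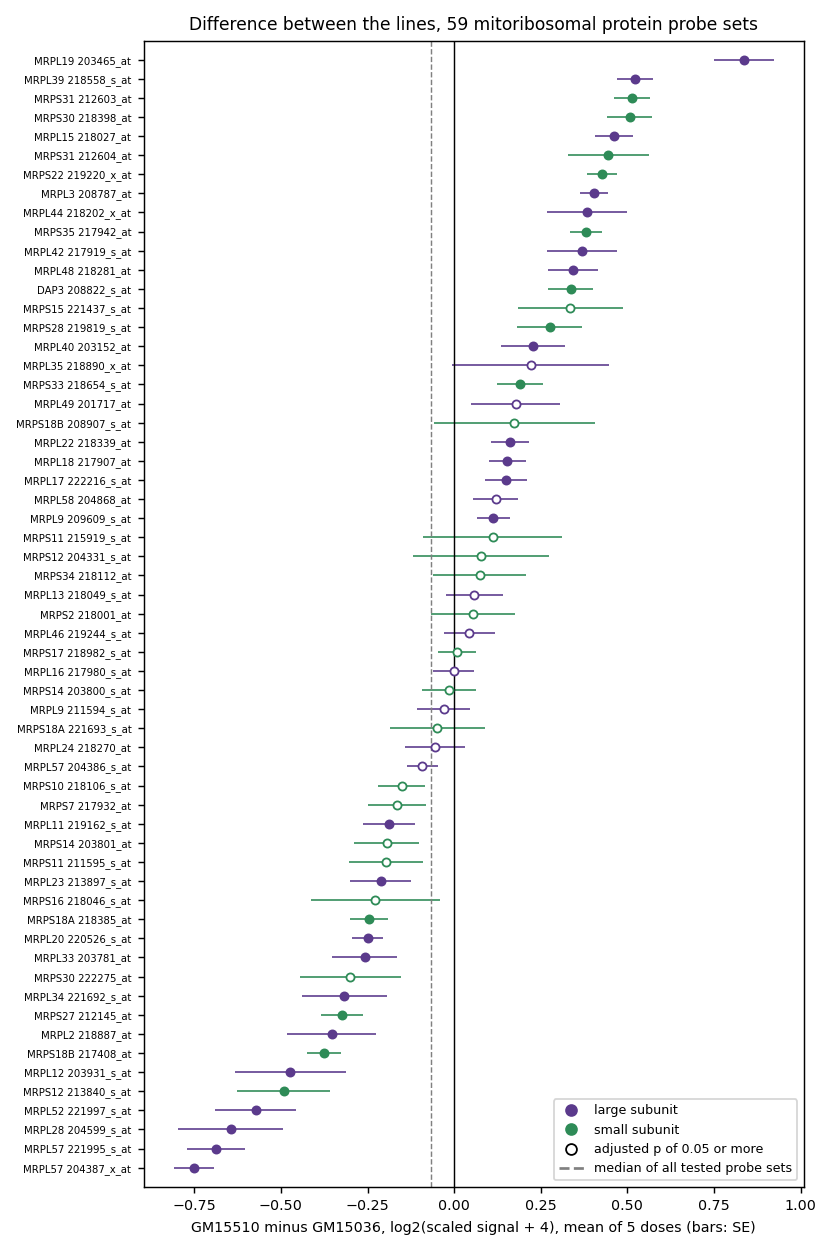
Difference between GM15510 and GM15036 for the 59 tested mitoribosomal protein probe sets, as the mean over 5 doses of GM15510 minus GM15036 on the log2(scaled signal + 4) scale, with SE bars; purple marks the large and green the small subunit, filled points passed an adjusted p of 0.05, and the dashed line is the median of all tested probe sets. The points run from MRPL57 at -0.75 to MRPL19 at 0.84, and both subunits have filled points on both sides.

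Among large subunit genes, MRPL19, a homologue of bacterial L19, stood highest. Its lowest, median and highest values were 7.17, 7.47 and 7.71 in GM15510 and 6.21, 6.61 and 7.39 in GM15036, a difference of 0.84 ± 0.09 (SE, adjusted p = 5.65e-10, limma). A single GM15036 array, at 1 cGy, reached into the range of GM15510, and the next highest GM15036 array stood at 7.01. MRPL39, which is related to threonyl-tRNA synthetase, had values of 7.88, 8.47 and 8.75 in GM15510 and 7.50, 8.02 and 8.19 in GM15036, a difference of 0.52 ± 0.05 (adjusted p = 4.56e-10). MRPL15, a homologue of bacterial L15, had 7.13, 7.40 and 7.61 in GM15510 and 6.54, 6.97 and 7.22 in GM15036, a difference of 0.46 ± 0.05 (adjusted p = 1.16e-08). The ranges of the lines overlapped for both genes. The lowest GM15510 array of MRPL39, at 7.88, lay below its GM15036 median of 8.02. MRPL3, a core protein near the peptidyl transferase centre, differed by 0.40 ± 0.04 (adjusted p = 7.44e-10), with 8.80, 9.10 and 9.26 in GM15510 and 8.48, 8.69 and 8.86 in GM15036. MRPL44, which carries a fold of the RNase III family, differed by 0.38 ± 0.12 (adjusted p = 0.0063), a call that was lost with the GAPDH or the ACTB 3-prime to 5-prime ratio as a covariate (adjusted p = 0.450 and 0.243).

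The large subunit also held the probe sets furthest below 0. MRPL57, a small protein found only in mitochondrial ribosomes, was lower in GM15510 on 2 of its 3 probe sets, and is described on its own below. MRPL28, a homologue of bacterial L28, had 5.54, 6.03 and 6.62 in GM15510 and 5.92, 6.73 and 7.62 in GM15036, a difference of -0.64 ± 0.15 (adjusted p = 6.56e-04). Its GM15036 arrays were spread widely even within a dose, with 7.36, 5.92 and 6.12 at 1 cGy. MRPL52, also specific to mitochondria, had 3.83, 5.10 and 5.74 in GM15510 and 5.05, 5.47 and 6.15 in GM15036, a difference of -0.57 ± 0.12 (adjusted p = 1.18e-04). MRPL12, the stalk protein of the large subunit, differed by -0.47 ± 0.16 (adjusted p = 0.015). That call was lost when arrays were centred on their medians (-0.27, adjusted p = 0.121) or centred after scaling (-0.36, adjusted p = 0.065), and with the GAPDH ratio as a covariate (-0.39, adjusted p = 0.221). MRPL58, a peptidyl-tRNA hydrolase that rescues stalled ribosomes, differed by 0.12 ± 0.06 and did not pass (adjusted p = 0.128), but passed when arrays were centred on their medians (0.26, adjusted p = 0.0073) or after scaling (0.24, adjusted p = 0.0046).

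In the small subunit, MRPS31, a protein specific to mitochondria, was higher in GM15510 on both its probe sets. On the first, in the order of their IDs, its lowest, median and highest values were 7.87, 8.22 and 8.51 in GM15510 and 7.19, 7.70 and 8.10 in GM15036, a difference of 0.51 ± 0.05 (adjusted p = 3.26e-10), and on the second the difference was 0.44 ± 0.12 (adjusted p = 0.0019). MRPS22, in which inherited mutations cause mitochondrial disease, had 7.71, 8.01 and 8.13 in GM15510 and 7.33, 7.52 and 7.76 in GM15036, a difference of 0.43 ± 0.04 (adjusted p = 5.99e-10). The ranges of the lines overlapped at their ends for both genes, by the least for MRPS22. MRPS30, which structures of the human ribosome place in the large subunit despite its symbol, was higher on its first probe set by 0.51 ± 0.07 (adjusted p = 6.56e-08), with 6.33, 6.60 and 6.89 in GM15510 and 5.50, 6.24 and 6.50 in GM15036. Its second probe set pointed the other way without passing (-0.30). DAP3, a GTP-binding protein of the small subunit first described in cell death, differed by 0.34 ± 0.07 (adjusted p = 6.11e-05), with 7.45, 7.88 and 8.49 in GM15510 and 7.23, 7.55 and 7.92 in GM15036.

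Lower in GM15510 among genes counted by symbol with the small subunit were MRPS12, MRPS18B, MRPS27 and MRPS18A. MRPS12, the homologue of the bacterial decoding protein S12, differed by -0.49 ± 0.13 on the probe set with the highest mean (adjusted p = 0.0029), with 3.04, 4.45 and 5.25 in GM15510 and 4.36, 4.80 and 5.28 in GM15036. It was lost with the GAPDH or ACTB ratio as a covariate (adjusted p = 0.164 and 0.247), and its other tested probe set was at 0.08. MRPS18B, one of the human relatives of bacterial S18, had 7.06, 7.68 and 7.89 in GM15510 and 7.67, 8.01 and 8.28 in GM15036, a difference of -0.37 ± 0.05 (adjusted p = 8.06e-08). Its other probe set was at 0.17. MRPS27, an RNA-binding protein of the pentatricopeptide repeat family, differed by -0.32 ± 0.06 (adjusted p = 3.66e-05), with 6.78, 7.27 and 7.59 in GM15510 and 7.20, 7.56 and 8.02 in GM15036. Of the 9 genes with over 1 tested probe set, 4 had the same sign on all of theirs, MRPL57, MRPS14, MRPS18A and MRPS31.

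By subunit, 12 large subunit probe sets were higher and 11 lower in GM15510, of 32 tested, and 8 small subunit probe sets were higher and 4 lower, of 27. The share called was 71.9% of the large and 44.4% of the small subunit probe sets. Over all tested probe sets it was 47.2%, with 20.5% higher and 26.7% lower. The median difference was 0.05 for the large and 0.06 for the small subunit. The subunits were not tested against each other or against all probe sets.

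Promoters of 5 of these genes are given because they show the extremes of the line difference and the motifs that recur in the family: MRPL19 as the highest, MRPL57 and MRPL28 as the lowest, and MRPL16 and MRPS18B, 2 genes with a called dose change and a motif, chosen after their values were seen. Each runs from 250 bases before to 50 bases after the gene's start, 5′ to 3′ on the gene's strand, from RefSeq on GRCh38. MRPL19 lies at chr2:75646533-75646832 on the plus strand, MRPL57 at chr13:21176408-21176707 on the plus strand, MRPL28 at chr16:370489-370788 on the minus strand, MRPL16 at chr11:59810729-59811028 on the minus strand and MRPS18B at chr6:30617590-30617889 on the plus strand. Capitals mark matches to the core of NRF1 (GCATGCGC), of ETS factors such as GABP (CCGGAAG, or CTTCCGG on the other strand) and of YY1 (AAGATGGC), which are known regulators of nuclear genes for mitochondrial proteins.
MRPL19: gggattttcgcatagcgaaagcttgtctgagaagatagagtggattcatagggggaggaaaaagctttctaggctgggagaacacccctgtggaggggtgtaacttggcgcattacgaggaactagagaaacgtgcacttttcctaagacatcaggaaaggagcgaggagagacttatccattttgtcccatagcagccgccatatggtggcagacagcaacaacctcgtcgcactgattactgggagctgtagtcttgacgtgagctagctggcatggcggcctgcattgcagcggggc
MRPL57: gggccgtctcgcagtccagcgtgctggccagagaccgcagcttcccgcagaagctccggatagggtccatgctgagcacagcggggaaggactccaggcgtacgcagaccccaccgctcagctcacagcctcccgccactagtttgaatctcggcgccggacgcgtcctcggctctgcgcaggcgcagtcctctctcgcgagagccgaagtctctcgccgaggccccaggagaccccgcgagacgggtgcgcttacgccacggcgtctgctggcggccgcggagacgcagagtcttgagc
MRPL28: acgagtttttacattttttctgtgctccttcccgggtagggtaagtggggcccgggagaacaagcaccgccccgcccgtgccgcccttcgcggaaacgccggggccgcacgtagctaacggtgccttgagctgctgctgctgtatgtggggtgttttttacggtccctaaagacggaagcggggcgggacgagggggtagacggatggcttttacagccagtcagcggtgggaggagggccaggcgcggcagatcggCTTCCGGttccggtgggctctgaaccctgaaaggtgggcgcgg
MRPL16: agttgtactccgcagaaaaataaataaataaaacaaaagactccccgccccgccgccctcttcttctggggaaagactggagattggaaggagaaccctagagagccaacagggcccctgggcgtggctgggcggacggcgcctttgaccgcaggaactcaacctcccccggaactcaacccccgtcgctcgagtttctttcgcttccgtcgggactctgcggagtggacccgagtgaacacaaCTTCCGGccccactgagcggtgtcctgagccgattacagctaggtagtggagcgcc
MRPS18B: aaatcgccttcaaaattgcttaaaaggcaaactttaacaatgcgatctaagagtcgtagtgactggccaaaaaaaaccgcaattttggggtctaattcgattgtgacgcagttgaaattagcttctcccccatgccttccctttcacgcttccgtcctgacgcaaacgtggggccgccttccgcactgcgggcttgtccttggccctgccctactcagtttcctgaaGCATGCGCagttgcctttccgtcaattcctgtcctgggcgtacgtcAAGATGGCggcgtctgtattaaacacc
MRPL28 held an ETS match starting at base 8 and MRPL16 one at -6 from the start, and MRPS18B held an NRF1 match at -23 and a YY1 match at 24. MRPL19 and MRPL57 held none of these letters in the window. Of the 52 genes, 46 had a promoter in the table, and 28 of them (60.9%) held at least 1 of the 3 motifs on either strand, against 17.6% of all 27305 genes of the table and 23.4% of its 15842 protein-coding genes. The ETS letters were in 41.3% of the mitoribosomal genes, 12.2% of all genes and 16.5% of the protein-coding ones. The YY1 letters were in 28.3%, 3.52% and 4.66%, and the NRF1 letters in 10.9%, 3.68% and 4.89%, of the same sets. Of 2 further motifs, the GC box (GGGCGG) was in 60.9% of the mitoribosomal genes, 48.3% of all and 64.3% of the protein-coding ones, and the E box (CACGTG), which MYC binds, in 10.9%, 8.77% and 10.9%. Some genes hold several promoters, and a gene counted when any of them matched. A match is a string of letters in this window, and its use in these cells was not measured.

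In GM15510 the dose changes were few and went both ways. Against 1 cGy, 2 probe sets were higher and 2 lower at 2.5 cGy, 2 higher at 5 cGy, none changed at 7.5 cGy, and 3 were higher and 2 lower at 10 cGy, of 59 each time. Over all tested probe sets the share called was 9.49% at 2.5 cGy (3.92% higher, 5.57% lower), 4.19% at 5 cGy (2.08% higher, 2.12% lower), 1.79% at 7.5 cGy and 5.91% at 10 cGy (3.09% higher, 2.82% lower). At 7.5 cGy, 6 of the 59 and 1583 of all 13331 tested probe sets had an unadjusted p under 0.05, and an alternative weighting of the arrays called 1. The median change of the mitoribosomal probe sets was 0.02, -0.08, -0.04 and 0.03 at the 4 doses, against -0.01, -0.0061, -0.0091 and -0.0049 over all. These comparisons share the 1 cGy arrays.

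**Figure D2:**
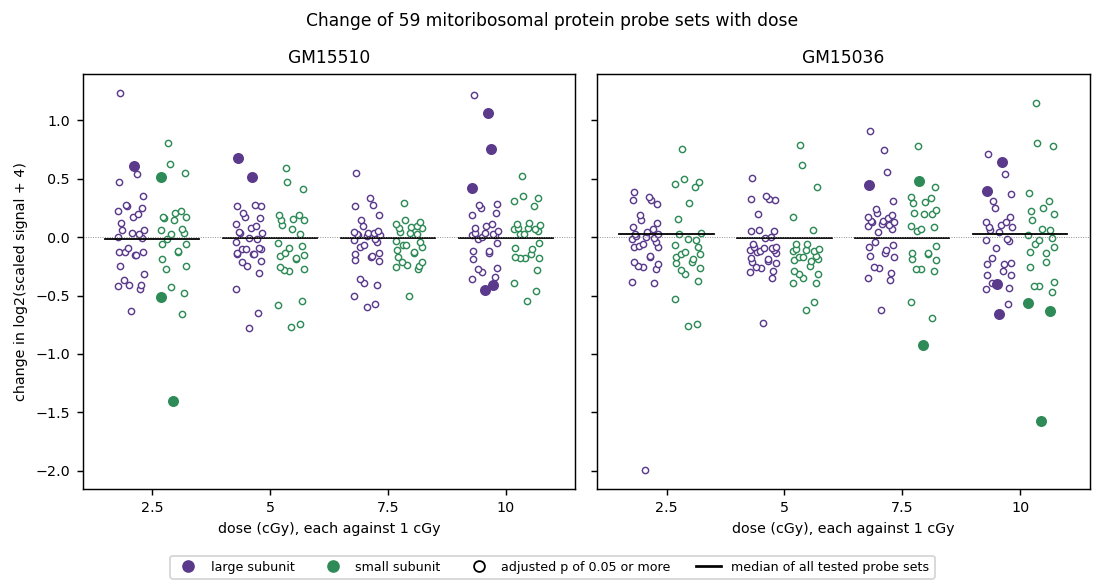
Change of each of the 59 tested mitoribosomal protein probe sets at 2.5, 5, 7.5 and 10 cGy against 1 cGy of the same line, on the log2(scaled signal + 4) scale, for GM15510 (left) and GM15036 (right); large subunit in purple, small in green, filled where the adjusted p was below 0.05, and a black bar at the median of all tested probe sets. Filled points are few at each dose and at most 7 of 59.

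At 10 cGy, MRPL16, a homologue of bacterial L16 near the tRNA sites of the large subunit, rose. It had 8.40, 8.49 and 8.39 in GM15510 at 10 cGy, against 7.73, 7.44 and 7.86 at 1 cGy. All 3 arrays at 10 cGy lay above every other GM15510 array, the highest of which stood at 8.06. The change was 0.75 ± 0.13 (adjusted p = 2.88e-04) and passed under every alternative run, with adjusted p up to 0.024. MRPL22, which lines the exit tunnel in its bacterial form, had 7.54, 7.58 and 7.47 at 10 cGy, against 7.01, 7.16 and 7.14 at 1 cGy. These groups did not overlap and the change was 0.42 ± 0.12 (adjusted p = 0.034), but leaving out any 1 of the 6 arrays ended the call (adjusted p 0.067 to 0.150). MRPL17, a homologue of bacterial L17, had 6.34, 6.36 and 6.24 at 10 cGy, against 6.60, 6.87 and 6.83 at 1 cGy, a change of -0.45 ± 0.14 (adjusted p = 0.039). MRPL39 had 8.14, 7.88 and 8.43 at 10 cGy, against 8.55, 8.75 and 8.40 at 1 cGy, overlapping, with a change of -0.41 ± 0.12 (adjusted p = 0.029). Both falls were lost with several single arrays left out and under centring on the medians (adjusted p = 0.320 and 0.336). All 5 probe sets called at 10 cGy in GM15510 were of the large subunit, 0 of 27 small subunit probe sets passed, and the difference between the subunits was not tested.

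At 2.5 cGy, MRPS18B had the smallest p among the members. It had 7.25, 7.45 and 7.06 in GM15510 at 2.5 cGy, against 7.61, 7.82 and 7.87 at 1 cGy. All 3 arrays at 2.5 cGy lay below all at 1 cGy. The change was -0.51 ± 0.11 (adjusted p = 0.0023), and it was lost with array brightness as a covariate (-0.47, adjusted p = 0.222) while no single array ended it. Its other probe set was at 0.62 ± 0.52 and did not pass (adjusted p = 0.516). MRPS16, a homologue of bacterial S16, had 3.01, 3.13 and 2.99 at 2.5 cGy, against 4.13, 4.25 and 4.96 at 1 cGy, a change of -1.41 ± 0.42 (adjusted p = 0.028) near the floor of the scale. MRPS33, specific to mitochondria, had 6.47, 6.73 and 6.66 at 2.5 cGy, against 6.04, 6.17 and 6.11 at 1 cGy, a change of 0.51 ± 0.15 (adjusted p = 0.025). On its second probe set MRPL9, a homologue of bacterial L9, had 7.04, 7.10 and 7.18 at 2.5 cGy and 7.23, 7.18 and 7.10 at 5 cGy, against 6.29, 6.94 and 6.25 at 1 cGy. Neither higher group overlapped 1 cGy, with changes of 0.61 ± 0.17 (adjusted p = 0.019) and 0.68 ± 0.17 (adjusted p = 0.017). Its first probe set was at 0.00017 and 0.12 at these doses and did not pass (adjusted p = 0.999 and 0.660). No mitoribosomal probe set passed at 2.5 or 5 cGy in GM15510 with array brightness as a covariate, so MRPS33 and MRPL9 were lost too. At 5 cGy none passed with the ACTB ratio as a covariate or without the 5 dimmest arrays. With arrays centred on their medians, MRPS33 and MRPL9 had the opposite sign at 2.5 cGy (-0.15 and -0.08), and all probe sets then had a median change of -0.50. On that scale 38 of the 59 fell and none rose at 2.5 cGy, and the median of the members was -0.63, while 5618 of all 13331 tested probe sets fell and 74 rose.

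In GM15036 the changes came at the higher doses. No probe set passed at 2.5 or 5 cGy, where 0.548% and 0.143% of all tested probe sets did. At an unadjusted p under 0.05 there were 7 and 9 of 59, and 1262 and 1063 of all 13331, and the weighting of arrays called 4 at 2.5 cGy and 0 at 5 cGy. At 7.5 cGy 2 were higher and 1 lower, with 3.22% of all called (1.27% higher, 1.95% lower), and at 10 cGy 2 were higher and 5 lower, with 11.7% of all called (4.39% higher, 7.35% lower). The median change of the members was -0.06, -0.12, 0.09 and -0.02 at the 4 doses, against 0.03, -0.0060, -0.0030 and 0.03 over all tested probe sets. At 5 cGy 15 of the 59 changes (25.4%) and 49.1% of all were above 0. Under median centring all probe sets shifted by -0.38 at 10 cGy, and 35 members fell with a median of -0.56 and none rose. Of all 13331 tested probe sets, 4251 then fell and 74 rose.

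MRPS35, a small subunit protein found only in mitochondria, fell at 10 cGy in GM15036. Its values were 6.70, 6.97 and 6.76 at 10 cGy, against 7.40, 7.48 and 7.45 at 1 cGy. The 3 arrays at 10 cGy lay below all other GM15036 arrays, the lowest of which was 7.16. The change was -0.63 ± 0.10 (adjusted p = 6.29e-05) and passed under every alternative run, with adjusted p up to 0.0039. In GM15510 the same probe set had 7.63, 7.35 and 7.70 at 10 cGy and 7.71, 7.69 and 7.79 at 1 cGy. The difference of the 10 cGy changes, GM15510 minus GM15036, was 0.46 ± 0.14 (adjusted p = 0.041 for that contrast, and 0.034 for the F test over all doses).

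MRPS31 on its first probe set had 7.19, 7.30 and 7.66 in GM15036 at 10 cGy, against 7.93, 7.80 and 8.10 at 1 cGy. The groups did not overlap, and the change was -0.56 ± 0.11 (adjusted p = 9.63e-04). It was lost with array brightness as a covariate (-0.25, adjusted p = 0.461) and without the 5 dimmest arrays (-0.28, adjusted p = 0.281), an alternative chosen after seeing the data. MRPS31 on its second probe set was lower at 7.5 cGy, with 4.64, 5.67 and 4.97, against 5.81, 5.92 and 6.31 at 1 cGy (-0.92 ± 0.26, adjusted p = 0.043), and lost that call when any of 6 single arrays was left out (adjusted p up to 0.205). MRPS16 had 3.71, 2.61 and 3.26 at 10 cGy, against 4.55, 4.38 and 5.39 at 1 cGy, a change of -1.58 ± 0.42 (adjusted p = 0.010). Its call ended without 1 cGy replicate c (adjusted p = 0.088) or 10 cGy replicate b (adjusted p = 0.071). In the large subunit, MRPL40, specific to mitochondria, changed by -0.66 ± 0.21 (adjusted p = 0.032), with 5.19, 5.41 and 5.03 at 10 cGy, against 5.78, 5.85 and 5.97 at 1 cGy. Its call ended when any of 5 of the 6 arrays was left out (adjusted p 0.054 to 0.111), and with array brightness (0.402) or the GAPDH ratio (0.175) as a covariate, with array weights (0.052) and without the 5 dimmest arrays (0.091). MRPL15 had 6.54, 6.93 and 6.72 at 10 cGy, against 7.12, 7.08 and 7.19 at 1 cGy, with a change of -0.40 (adjusted p = 0.027). With brightness as a covariate 1 probe set was called at 10 cGy, MRPS35, and without the 5 dimmest arrays 3 were. Among the B cell markers, 1 of 13 tested probe sets rose at 10 cGy in GM15036 (PAX5, 1.00) and 2 fell (HLA-DRA, -1.16 and -0.97), and the 1 tested probe set of the T and NK cell list, of CD3E, rose (1.36). The part of these in the mitoribosomal changes was not tested.

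MRPS17, a homologue of bacterial S17 in the small subunit, rose at 7.5 cGy in GM15036. It had 7.10, 7.15 and 7.18 at 7.5 cGy, against 6.71, 6.80 and 6.49 at 1 cGy, without overlap (0.48 ± 0.12, adjusted p = 0.024). The call ended without 1 cGy replicate c (adjusted p = 0.154), 7.5 cGy replicate b (0.079) or 7.5 cGy replicate c (0.096). It was also lost with array brightness or the ACTB ratio as a covariate, where no mitoribosomal probe set passed at this dose. Under centring on the medians or after scaling, none was called higher at 7.5 cGy in GM15036.

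**Figure D3:**
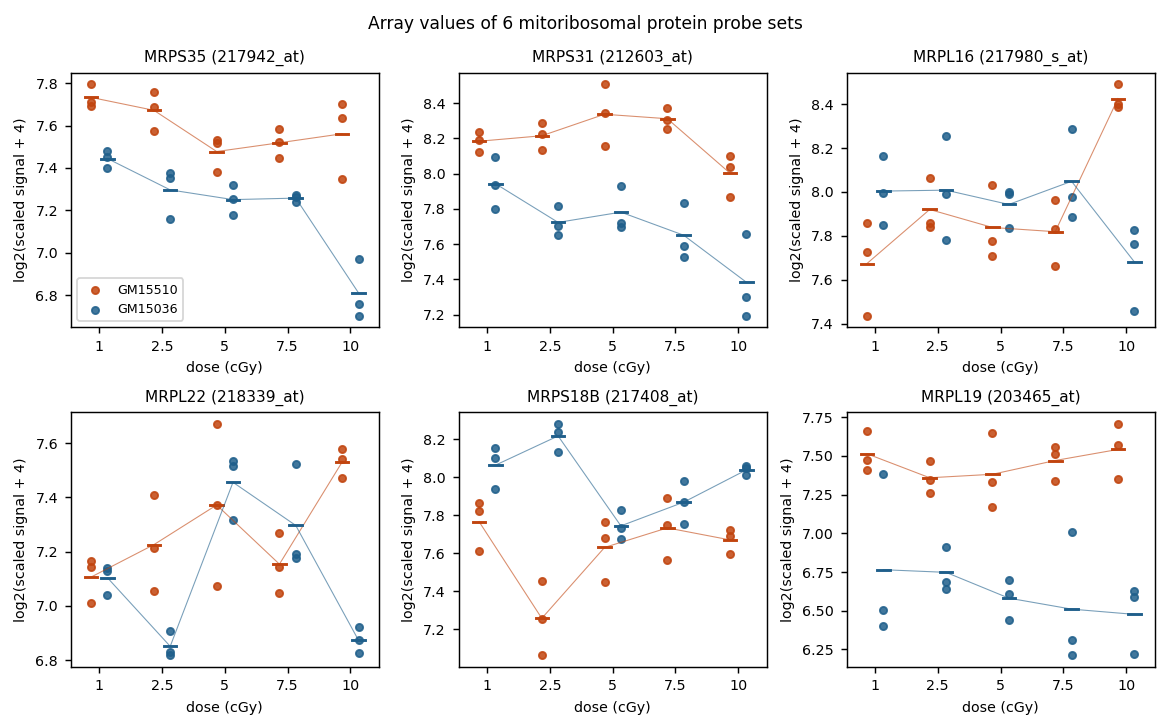
Values of 6 probe sets on all 30 arrays against dose in cGy, on the log2(scaled signal + 4) scale, with GM15510 in orange left of GM15036 in blue; points are arrays, and short bars joined by thin lines are means of 3. MRPS35 drops in GM15036 at 10 cGy to 6.70 to 6.97, MRPL16 stands at 8.39 to 8.49 in GM15510 at 10 cGy, and MRPL19 is below the GM15510 range in 14 of 15 GM15036 arrays.

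As slopes over the 5 doses, 2 probe sets rose and 2 fell in GM15510, of 59, where 4.62% of all passed (2.72% up, 1.9% down). In GM15036 3 rose and 4 fell, where 13% of all passed (5.23% up, 7.77% down). In GM15510 MRPL16 rose by 0.06 ± 0.01 per cGy (adjusted p = 0.0027) and MRPL17 changed by -0.05 ± 0.01 per cGy (adjusted p = 0.012), and the other 2 called were of MRPL57. In GM15036 MRPS35, MRPS31 and MRPS30 had slopes of -0.06, -0.05 and -0.06 per cGy (adjusted p = 1.20e-04, 0.0014 and 0.0049), MRPS16 had -0.13 (adjusted p = 0.032) and MRPS17 had 0.05 (adjusted p = 0.0021). Much of this rested on the highest dose. Without the 10 cGy arrays no slope passed in GM15510, 2 passed in GM15036, and the slope of MRPS30 changed sign to 0.0042. With array brightness as a covariate, 2 slopes were called in GM15036 and 1 in GM15510. The trimmed mean signal in GM15036 averaged 69.7, 49.9, 51.3, 32.4 and 22.1 at 1, 2.5, 5, 7.5 and 10 cGy. MRPS30 itself had 5.50, 5.58 and 5.70 in GM15036 at 10 cGy, below 5.74, 6.29 and 6.02 at 1 cGy and below 6.42, 6.42 and 6.48 at 2.5 cGy. These values are from its first probe set. The second had a slope of 0.06 per cGy (adjusted p = 0.204) and a 10 cGy change of 0.80 (adjusted p = 0.113), and neither passed.

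MRPL57 showed changes that depended on the probe set, numbered here in the order of their IDs. On the second its lowest, median and highest values were 7.04, 7.78 and 8.14 in GM15510 and 7.96, 8.43 and 8.95 in GM15036, a difference of -0.75 ± 0.06 (adjusted p = 9.56e-13). On the third they were 5.53, 6.29 and 7.43 in GM15510 and 6.83, 7.06 and 7.24 in GM15036, a difference of -0.69 ± 0.08 (adjusted p = 2.04e-08). On the first they were 8.19, 8.46 and 8.67 in GM15510 and 8.23, 8.42 and 8.92 in GM15036, and the difference of -0.09 ± 0.04 did not pass (adjusted p = 0.092).

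With dose the 3 probe sets of MRPL57 parted within GM15510. At 10 cGy, the third probe set had 7.10, 7.43 and 7.42, against 6.32, 6.29 and 6.16 at 1 cGy, a change of 1.06 ± 0.19 (adjusted p = 3.01e-04) that passed under every alternative run. At the same dose the second probe set had 7.04, 7.34 and 7.14, against 7.61, 7.57 and 7.36 at 1 cGy, and the first had 8.27, 8.30 and 8.26, against 8.61, 8.66 and 8.44 at 1 cGy. Each of the 3 was free of overlap between these groups, 1 upward and 2 downward, and the downward ones did not pass (-0.34, adjusted p = 0.137 and -0.29, adjusted p = 0.082). At 5 cGy the second probe set had risen, with 8.14, 7.97 and 7.99 (0.52 ± 0.13, adjusted p = 0.015). That call ended without 1 cGy replicate 3 (adjusted p = 0.112) or 5 cGy replicate 1 (0.088), with array brightness (0.141) or the ACTB ratio (0.090) as a covariate, under centring on the medians (0.710, with a change of 0.12) or after scaling (0.132), without the variance trend (0.054) and without the 5 dimmest arrays (0.085). The slopes of the third probe set (0.11 per cGy, adjusted p = 2.49e-04) and the first (-0.04 per cGy, adjusted p = 0.023) both passed with opposite signs, the only gene of 9 with several tested probe sets where that was so. Without the 10 cGy arrays the slope of the third was -0.0029.

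In GM15036 all 3 probe sets of MRPL57 were above their 1 cGy values at 10 cGy. On the second the values were 8.95, 8.64 and 8.72 at 10 cGy, against 8.41, 7.99 and 7.96 at 1 cGy (0.65 ± 0.13, adjusted p = 8.21e-04), and on the first they were 8.92, 8.63 and 8.86, against 8.38, 8.44 and 8.39 (0.40 ± 0.10, adjusted p = 0.0071). The groups did not overlap on either, and the third was at 0.31 (adjusted p = 0.330). At 7.5 cGy the first had 8.75, 8.92 and 8.89 (0.45 ± 0.10, adjusted p = 0.0079). Centred on array medians, the 10 cGy change of the second was 0.01 (adjusted p = 0.982) and the 7.5 cGy change of the first 0.15 (adjusted p = 0.699). In the naming of these arrays, the letter x in an ID marks a probe set some of whose probes also match other transcripts, and s one that matches several related transcripts. Which transcripts each probe set of MRPL57 measured was not tested.

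**Figure D4:**
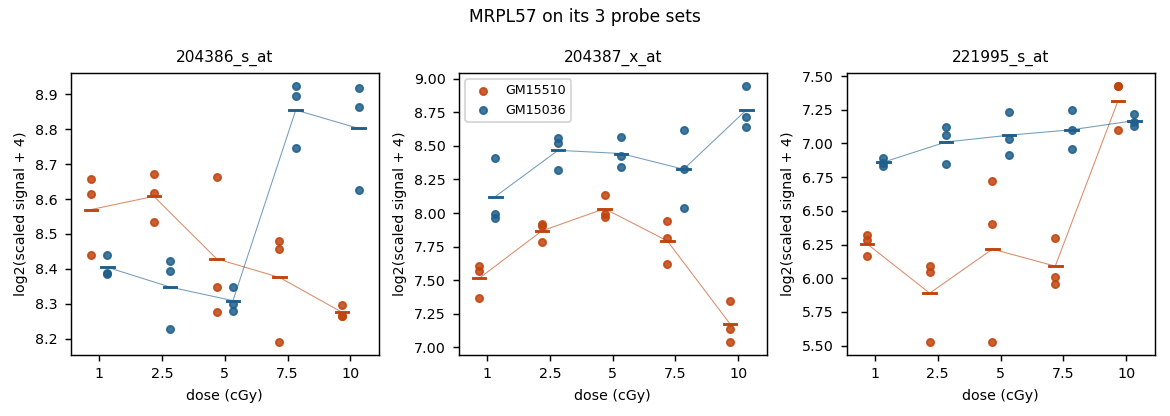
The 3 probe sets of MRPL57 on all 30 arrays against dose in cGy, on the log2(scaled signal + 4) scale, with GM15510 in orange left of GM15036 in blue; points are arrays and short bars are means of 3. In GM15510 at 10 cGy the left and middle panels show the lowest means of the line and the right panel the highest, 7.10 to 7.43.

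The lines differed in their dose pattern for 14 of the 59 probe sets by the F test of the line by dose interaction, where 20.5% of all tested probe sets passed. At an unadjusted p under 0.05 there were 23 of the 59 and 4319 of all 13331. By symbol, the 14 were 7 of 32 large and 7 of 27 small subunit probe sets. MRPL16 had a 10 cGy change larger by 1.07 ± 0.19 in GM15510 than in GM15036 (adjusted p = 2.5e-04 for that dose), where it had 7.82, 7.46 and 7.76 at 10 cGy, against 7.9963, 7.85 and 8.17 at 1 cGy. MRPL22 differed by 0.66 ± 0.18 at 10 cGy (adjusted p = 0.015), and in GM15036 it had 6.83, 6.92 and 6.87 at 10 cGy, against 7.04, 7.14 and 7.13 at 1 cGy. MRPS18B differed by -0.66 ± 0.15 at 2.5 cGy (adjusted p = 0.012), where GM15036 had 8.24, 8.28 and 8.13, against 8.10, 8.15 and 7.94 at 1 cGy. For these 3 genes the changes of the lines at that dose thus had opposite signs, and those in GM15036 did not pass their own test.

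The subunits were set against each other array by array. On each array the median of the large subunit probe sets, each taken relative to its 30-array mean, was compared with that of the small subunit. The difference, large minus small, averaged 0.10 ± 0.05 in GM15510 at 10 cGy and -0.06 ± 0.04 at 1 cGy, with 0.15, 0.05 and 0.11 at 10 cGy and -0.02, -0.06 and -0.10 at 1 cGy, which do not overlap. In GM15036 it averaged -0.07 ± 0.17 at 10 cGy and -0.06 ± 0.06 at 1 cGy, with 0.11, -0.21 and -0.12 at 10 cGy and -0.03, -0.12 and -0.02 at 1 cGy. The 10 cGy arrays of GM15036 lay on both sides of those at 1 cGy, while its arrays at 2.5 cGy (0.06, -0.02 and 0.03) and at 5 cGy (0.11, 0.01 and 0.02) all lay above them. The medians of the changes at 2.5, 5, 7.5 and 10 cGy were 0.01, -0.03, -0.02 and 0.02 for the large and 0.03, -0.09, -0.06 and 0.03 for the small subunit in GM15510. They were -0.01, -0.10, 0.10 and -0.02 for the large and -0.13, -0.17, 0.07 and -0.02 for the small subunit in GM15036. These are descriptions with no test, and MRPS30 and MRPS18A are counted by their symbols with the small subunit.

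**Figure D5:**
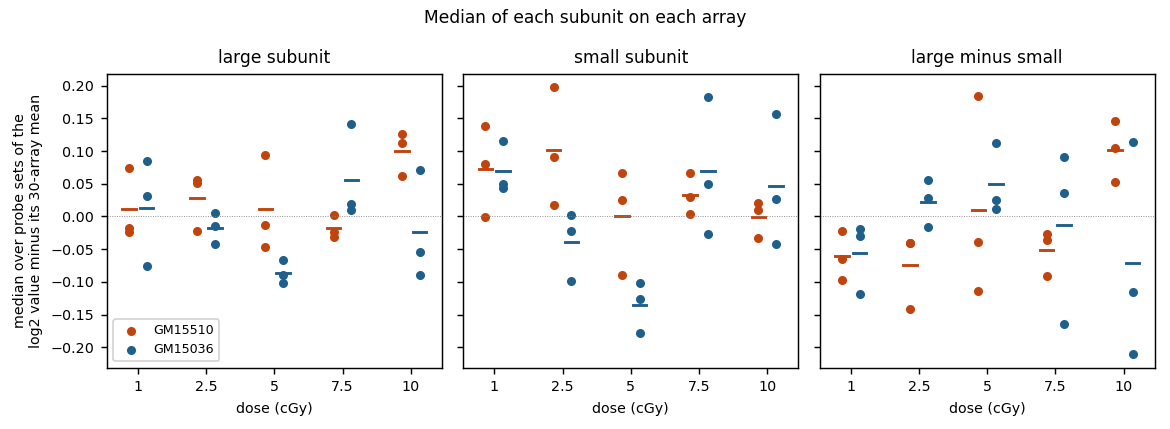
Median over the tested probe sets of the large subunit, of the small subunit, and their difference, on each of the 30 arrays against dose in cGy; each probe set is its log2(scaled signal + 4) minus its own 30-array mean, GM15510 in orange left of GM15036 in blue, with bars at means of 3. The array medians of the small subunit run from -0.18 to 0.20, and the difference stands between 0.05 and 0.15 in GM15510 at 10 cGy and between -0.10 and -0.02 at 1 cGy.

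The tested members picked by their role gave no calls against 1 cGy or as slopes, and MRPL41 was not tested. Over all tested probe sets the share called in these comparisons ran from 0.143% to 13%. DAP3, MRPL3, MRPL12, MRPL44, MRPL58, MRPS12 and MRPS27 passed at no dose and in no slope of either line. Of these, only MRPS27 passed the F test of the line by dose interaction (adjusted p = 0.023), which 20.5% of all tested probe sets passed. DAP3 had 7.45, 7.60 and 7.66 in GM15510 at 10 cGy, against 7.75, 7.9965 and 7.79 at 1 cGy, a change of -0.28 ± 0.15 (adjusted p = 0.354). MRPL12 had 5.42, 5.95 and 5.84 in GM15036 at 10 cGy, against 5.22, 4.20 and 5.67 at 1 cGy, overlapping, a change of 0.71 ± 0.36 (adjusted p = 0.222). MRPL3, the brightest of the members, had 8.54, 8.54 and 8.52 in GM15036 at 10 cGy, against 8.79, 8.79 and 8.68 at 1 cGy, without overlap, and its change of -0.22 ± 0.09 did not pass (adjusted p = 0.137). It passed with the ACTB ratio as a covariate (-0.32, adjusted p = 0.017) and under centring after scaling (-0.45, adjusted p = 0.0065).

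Other genes of mitochondrial translation were read beside these, here and in the next paragraph. Over all tested probe sets, 47.2% were called between the lines (20.5% higher, 26.7% lower in GM15510), with a median difference of -0.07. At 10 cGy the share called over all was 5.91% in GM15510 (3.09% higher, 2.82% lower). It was 11.7% in GM15036 (4.39% higher, 7.35% lower). No list was tested against these shares. Of 13 probe sets of translation factors, 4 were higher and 3 lower in GM15510 than in GM15036, among them LRPPRC, which stabilises mitochondrial mRNAs (0.46 ± 0.05, adjusted p = 5.07e-10), and TUFM, the elongation factor that brings tRNAs to the ribosome (-0.28 ± 0.04, adjusted p = 3.34e-07). At 10 cGy none rose and 1 fell in GM15510, and 1 rose and 2 fell in GM15036, both falls on LRPPRC. Of 22 probe sets of ribosome assembly factors, 3 were higher and 12 lower in GM15510, with a median difference of -0.20. FASTKD2, needed for the ribosomal RNA of the large subunit, was higher (0.64 ± 0.07, adjusted p = 4.39e-09), and MTG1, a GTPase of assembly, lower (-0.54 ± 0.11, adjusted p = 1.88e-04). At 10 cGy 2 rose and 1 fell in GM15510, and 2 rose and 3 fell in GM15036.

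Of 18 probe sets of mitochondrial aminoacyl-tRNA synthetases and related enzymes, 8 were higher and 2 lower in GM15510, among them GARS1 (0.50 ± 0.04, adjusted p = 1.90e-12), which serves cytosol and mitochondria. At 10 cGy none passed in GM15510, and 1, GARS1, fell in GM15036 (-0.40 ± 0.09, adjusted p = 0.0025). Of 18 probe sets of mitochondrial transcription and DNA maintenance, 4 were higher and 6 lower in GM15510. TFAM, which packages mitochondrial DNA, was on both sides, at 1.02 on one probe set (adjusted p = 2.80e-14) and -0.44 on another (adjusted p = 7.01e-04). At 10 cGy none rose and 3 fell in GM15510, and 2 rose and 1 fell in GM15036. Of 12 probe sets of nuclear regulators, 3 were higher and 3 lower in GM15510: the 3 of YY1 were higher, up to 0.56 ± 0.07 (adjusted p = 1.22e-07), and those of MYC (-0.76 ± 0.05, adjusted p = 5.45e-14), PPRC1 (-0.71 ± 0.09, adjusted p = 3.45e-08) and ESRRA (-0.34 ± 0.11, adjusted p = 0.0091) lower. At 10 cGy none rose and 1, of YY1, fell in GM15510, and none passed in GM15036. Of 2 probe sets of mitoribosome-bound proteins with other symbols, OXA1L, the insertase at the exit tunnel, was higher in GM15510 (0.40 ± 0.09, adjusted p = 4.32e-04), and PTCD3, a small subunit protein, fell in GM15036 at 10 cGy (-0.37 ± 0.12, adjusted p = 0.047).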

How the data were processed

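The arrays were Affymetrix human arrays of 22283 probe sets and hold RNA of 2 lymphoblastoid lines at 5 doses, with 3 arrays per group. The deposited values are intensities, linear and not brought to a common level, which the authors made with MAS5, per the submitters' processing notes; no version is stated there. For each array the trimmed mean (2% of values left out at each end) was set to the average over arrays, and log2(signal + 4) was taken. A probe set was tested when its mean was above the 40th percentile (log2 of 3.64), and 68 control probe sets were left out. Probe sets with 1 symbol (19071, against 1043 with several and 2169 with none) were named from the platform's annotation, which can be old, and all 65 members matched a RefSeq gene by ID.

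All tests used limma 3.58.1 (R 4.3.3): lmFit on 10 groups of 3 arrays, eBayes with an intensity trend, two-sided, 20 residual and 12.3 prior degrees of freedom, Benjamini-Hochberg over 13331 probe sets at 0.05. All groups share 1 estimate of the spread. The line difference is the mean of 5 group means of GM15510 minus that of GM15036, and slopes are per cGy. The scripts were tested on simulated data. Replicate numbers of different doses were checked for shared deviations. Named genes were, per comparison, up to 4 highest and 4 lowest changes past the threshold (6 each for the line difference), 1 probe set per gene by the smallest p, plus 8 genes taken for their role; companion lists give up to 3 members each, and others named were chosen after their values were seen. The members and lists were chosen with earlier results of these data known. The number of arrays limits the precision.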

Additional observations from a re-analysis of the deposited data

Results flagged for a closer look

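The dose pattern differed between GM15510 and GM15036 on 14 of the 59 tested mitoribosomal probe sets (23.7%). This was by the F test of the interaction in limma, adjusted over all tested probe sets, of which 20.5% passed. The adjusted p was 4.10e-05, 5.39e-05 and 0.0029 on the 3 probe sets of MRPL57, in the order of their IDs. In the large subunit it was 2.98e-04 for MRPL16, 0.0015 for MRPL17, 0.0018 for MRPL35 and 0.0023 for MRPL22. Among genes counted by symbol with the small subunit it was 4.48e-04 for MRPS18B, 0.0023 for MRPS17, 0.0038 for MRPS30, 0.023 for MRPS27, 0.024 for MRPS18A, 0.027 for MRPS33 and 0.034 for MRPS35. MRPS17 rose at 7.5 cGy in GM15036, and the change there was lower by 0.69 ± 0.17 in GM15510 (-0.69, adjusted p = 0.020 for that dose). MRPL35 was dim, at 4.84, 5.87 and 5.61 in GM15510 at 2.5 cGy and 3.58, 2.59 and 2.46 in GM15036 at 2.5 cGy, and arrays of a group spread widely (residual SD 0.72). Groups of 3 arrays were not tested for single outlying arrays.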

How the results depend on the processing

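The counts below are mitoribosomal probe sets called, by setting. With arrays centred on their medians they were 1, 1 and 35 in GM15036 at 2.5, 7.5 and 10 cGy and 28 for its slope, 38, 12 and 2 in GM15510 at 2.5, 5 and 10 cGy and 7 for its slope, and 34 for line by dose. The 35, 28, 38 and 12 all fell. Over all 13331 tested probe sets, 4251 and 4178 then fell at 10 cGy and in slope in GM15036, and 74 and 79 rose. At 2.5 and 5 cGy in GM15510, 5618 and 1921 fell, and 74 and 44 rose. Centred after scaling the member counts were 1, 1 and 17 in GM15036 at 2.5, 7.5 and 10 cGy and 14 for its slope. Over all, 2179 fell and 123 rose at 10 cGy in GM15036, and 2551 fell and 127 rose at 2.5 cGy in GM15510. In GM15510 the member counts were then 11, 2 and 2 at 2.5, 5 and 10 cGy and 2 for its slope. The 2 called at 5 cGy were lower, and were other probe sets than the 2 higher ones described above, which no longer passed. With brightness as a covariate they were 0 and 1 in GM15036 at 7.5 and 10 cGy and 2 for its slope, 0, 0 and 3 in GM15510 at 2.5, 5 and 10 cGy and 1 for its slope, and 7 for line by dose. With the ACTB ratio they were 0 in GM15036 at 7.5 cGy, and 0 at 5 cGy and 7 for the slope in GM15510. With the GAPDH ratio they were 1 in GM15036 at 7.5 cGy and 21 for the line difference. With array weights they were 4 in GM15036 at 2.5 cGy, and 1, 1 and 12 in GM15510 at 2.5, 7.5 and 10 cGy and 7 for its slope. Without the 5 dimmest arrays they were 3 in GM15036 at 10 cGy and 3 for its slope, and 0 in GM15510 at 5 cGy. Without 10 cGy the slopes gave 2 in GM15036 and 0 in GM15510. Each line fitted alone gave 1 in GM15036 at 2.5 cGy and 2 in GM15510 at 10 cGy, no trend gave 1 and 2 in GM15510 at 5 and 10 cGy, a pseudocount of 1 gave 1 in GM15036 at 2.5 cGy, and 1 probe set per gene gave 0 in GM15510 at 5 cGy. The cause of these shifts was not tested.

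Leaving out 1 array at a time gave 0 to 1, 0 to 0, 1 to 5 and 4 to 8 calls in GM15036 at 2.5, 5, 7.5 and 10 cGy and 6 to 8 for its slope. It gave 1 to 5, 0 to 3, 0 to 1 and 2 to 6 in GM15510 and 2 to 5 for its slope, 29 to 35 for the line difference and 13 to 15 for line by dose. The sign turned under median centring for the GM15036 slopes of MRPL57 (-0.0026) and MRPS17 (-0.0016) and for MRPL9 (-0.081) and MRPS33 (-0.145) in GM15510 at 2.5 cGy, and without 10 cGy for the slopes of MRPS30 in GM15036 (0.0042) and MRPL57 in GM15510 (-0.0029). Replicate labels did not pair the arrays: same-label deviations correlated at -0.055 to 0.041 in GM15036 and -0.062 to 0.097 in GM15510, and the replicate block gave 1, 0, 2 and 7 calls in GM15036 at 2.5, 5, 7.5 and 10 cGy and 7 for its slope, 5, 2, 0 and 4 in GM15510 and 5 for its slope, 32 for the line difference and 14 for line by dose.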

Other observations

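MRPS16 had the lowest values among the called dose changes. MRPS16 had 3.01, 3.13 and 2.99 in GM15510 at 2.5 cGy and 3.71, 2.61 and 3.26 in GM15036 at 10 cGy. With array brightness as a covariate the changes were -0.54 (adjusted p = 0.795) and -0.78 (adjusted p = 0.599).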
